A study of Mus musculus with 15 samples.

Results

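The 10 CC chemokine genes described here were Ccl2, Ccl3, Ccl4, Ccl5, Ccl6, Ccl7, Ccl8, Ccl9, Ccl12 and Ccl24. They were taken by symbol and matched to the Ensembl identifiers of the deposited count table. The choice was made with earlier results of these data known. They made up 10 of the 19456 genes in the table, and all 10 were among the 15802 genes that passed the filter on low counts. RNA had been sequenced from 15 libraries of sorted cells of wild type adult male C57BL/6 mice. Ly6Chi monocytes from blood gave 3 libraries, and 3 macrophage subsets of the small intestine gave 4 libraries each. Tim-4-CD4- macrophages carry neither surface protein, those called Tim-4-CD4+ carry CD4 alone, and those called Tim-4+CD4+ carry both. Every library held the cells of 3 pooled mice, except monocyte replicate 2, which held those of 4 mice. The study describes 4 independent sorts of macrophages and 3 of monocytes, and the labels do not say which libraries share a sort. Macrophage libraries of different subsets may therefore hold cells of the same mice, which the fit does not model. The p-values measure the spread between pools and not between single animals.

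CC chemokines are small secreted proteins, named for a pair of neighboring cysteines near the start of the mature protein, that guide leukocytes through G protein-coupled receptors. Ccl2, Ccl7 and Ccl12 act on Ccr2, the receptor by which Ly6Chi monocytes leave the bone marrow and enter tissues, whereas Ccl3 and Ccl5 act on Ccr1. Ccl4 is close to Ccl3 in sequence and is made by many of the same cells. Ccl6 and Ccl9 are myeloid chemokines that bind Ccr1, mouse Ccl8 is a ligand of Ccr8, and Ccl24 is an eotaxin that binds Ccr3 on eosinophils.

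The codons of the paired cysteines are shown for 9 of the genes because they define the family. Each line gives 30 coding bases of the GENCODE vM21 transcript on the coding strand (GRCm38), with the 2 cysteine codons in capitals.
Ccl2 (chr11:82036494-82036523, plus strand): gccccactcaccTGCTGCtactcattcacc
Ccl7 (chr11:82046526-82046555, plus strand): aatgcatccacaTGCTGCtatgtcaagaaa
Ccl8 (chr11:82116044-82116073, plus strand): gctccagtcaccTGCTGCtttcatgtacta
Ccl12 (chr11:82102622-82102651, plus strand): accccagtcacgTGCTGTtataatgttgtt
Ccl4 (chr11:83663470-83663499, plus strand): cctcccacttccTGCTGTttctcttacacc
Ccl5 (chr11:83529230-83529259, minus strand): gacaccactcccTGCTGCtttgcctacctc
Ccl6 (chr11:83589374-83589403, minus strand): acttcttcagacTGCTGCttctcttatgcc
Ccl9 (chr11:83575914-83575943, minus strand): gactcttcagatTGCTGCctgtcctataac
Ccl24 (chr5:135572653-135572682, minus strand): atcccctcatctTGCTGCacgtcctttatt

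Of the 10 genes, 9 lay on chromosome 11, in 2 groups, and Ccl24 lay on chromosome 5 (135569937 to 135573049, minus strand). The group of Ccl2 (82035571 to 82037453), Ccl7 (82045712 to 82047525), Ccl12 (82101845 to 82103400) and Ccl8 (82115185 to 82116799) was transcribed from the plus strand. The other group held Ccl5 (83525778 to 83530518), Ccl9 (83572919 to 83578636), Ccl6 (83587882 to 83593087) and Ccl3 (83647844 to 83649355) on the minus strand and Ccl4 (83662584 to 83664683) on the plus strand, and it began 1408978 bases beyond the end of Ccl8. Ccl6 and Ccl9 were 9245 bases apart and Ccl3 and Ccl4 were 13228 bases apart. In coding sequence, Ccl3 and Ccl4 were the most alike of the 45 pairs, with 66.7% identical bases, followed by Ccl6 and Ccl9 (64.8%) and Ccl8 and Ccl12 (64.4%), against a median of 48.4% over all pairs. No stretch of 65 bases, the length of a read, in the annotated transcripts of 9 of the genes was found in a transcript of another gene. In Ccl9, 0.57% of such stretches were. Ccl2 is overlapped on the other strand by Gm17268, which was not analysed here, and Ccl6 by E230016K23Rik, which reached at most 16.6 CPM, and whether the count used strand is not given in the sources used here.

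The depth behind these values was 39388763 to 151510641 counts on genes per library. Levels are given as CPM, counts scaled to library size after TMM, and intervals of counts cover counting error only. All 8 macrophage markers fixed for the check were detected and summed to 23450 to 30060 CPM in macrophage libraries and 3877 to 4365 CPM in monocyte libraries. Timd4 had a mean of 355 ± 25.2 CPM in Tim-4+CD4+ macrophages and 1.11 ± 1.24 CPM in Tim-4-CD4- macrophages (SD, n = 4), and Cd4 had 531 ± 51.0 CPM in Tim-4-CD4+ macrophages against 22.9 ± 11.2 CPM in Tim-4-CD4- macrophages (SD, n = 4). Markers of other cells were checked as sums over fixed lists. The 5 dendritic cell markers summed to 65.0 CPM in Tim-4-CD4- replicate 3, from 16.4 CPM in the lowest library of that subset, and to at most 12.9 CPM in the libraries of the other 2 subsets. The 11 T and NK cell markers stayed at or below 17.6 CPM in every library, the 5 epithelial markers at or below 24.0 CPM and the mast cell markers at or below 14.0 CPM. The 5 B and plasma cell markers summed to 202 to 390 CPM in macrophage libraries, mainly from Jchain, against at most 0.379 CPM in monocytes. The neutrophil list summed to 1569 to 3453 CPM in macrophages, mainly from Mmp9 and Csf3r. The endothelial list, mainly from Pecam1, summed to 108 to 123 CPM in the Tim-4-CD4- subset and 174 to 215 CPM in Tim-4-CD4+ libraries. It summed to 287 to 347 CPM in Tim-4+CD4+ libraries. These sums did not overlap and had the same order as Ccl24. Of the 4 endothelial markers, only 1 passed as higher in each comparison of macrophage subsets, and none as lower. Their median log2 fold change was -0.74 for Tim-4-CD4+ relative to Tim-4-CD4- macrophages. For Tim-4+CD4+ macrophages it was 0.20 relative to the Tim-4-CD4- subset and 0.76 relative to the Tim-4-CD4+ subset. The 5 mesenchymal markers summed to 59.6 to 90.1 CPM in the Tim-4-CD4- subset and 71.5 to 93.2 CPM in Tim-4-CD4+ libraries. In Tim-4+CD4+ libraries they summed to 98.4 to 138 CPM. Of the 5, 4 passed as higher in Tim-4+CD4+ than in Tim-4-CD4- macrophages, beside 11.3% of all genes tested. Ccl8 and Ccl24 rose in the same comparison. The part of other cells in the levels of the chemokines was not tested. In bulk samples, a change in the number of cells that express a gene and a change in its RNA per cell cannot be told apart.

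The first question was which chemokines monocytes and intestinal macrophages express. Monocytes expressed Ccl6 and Ccl9 and little of the other genes. In each macrophage subset 8 of the 10 genes passed the test as higher than in monocytes and 2, Ccl6 and Ccl9, as lower (edgeR quasi-likelihood test, Benjamini-Hochberg adjusted p under 0.05). Over all genes tested, 37.3% were called higher and 28.1% lower in the Tim-4-CD4- subset, 39.1% and 30.7% in the Tim-4-CD4+ subset, and 39.5% and 31.3% in the Tim-4+CD4+ subset. The 3 comparisons use the same 3 monocyte libraries, so their likeness is in part built in. The median log2 fold change of the 10 genes was 7.25, 7.89 and 8.43 in these comparisons in that order, beside 0.08, 0.11 and 0.10 over all genes tested.

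**Figure D1:**
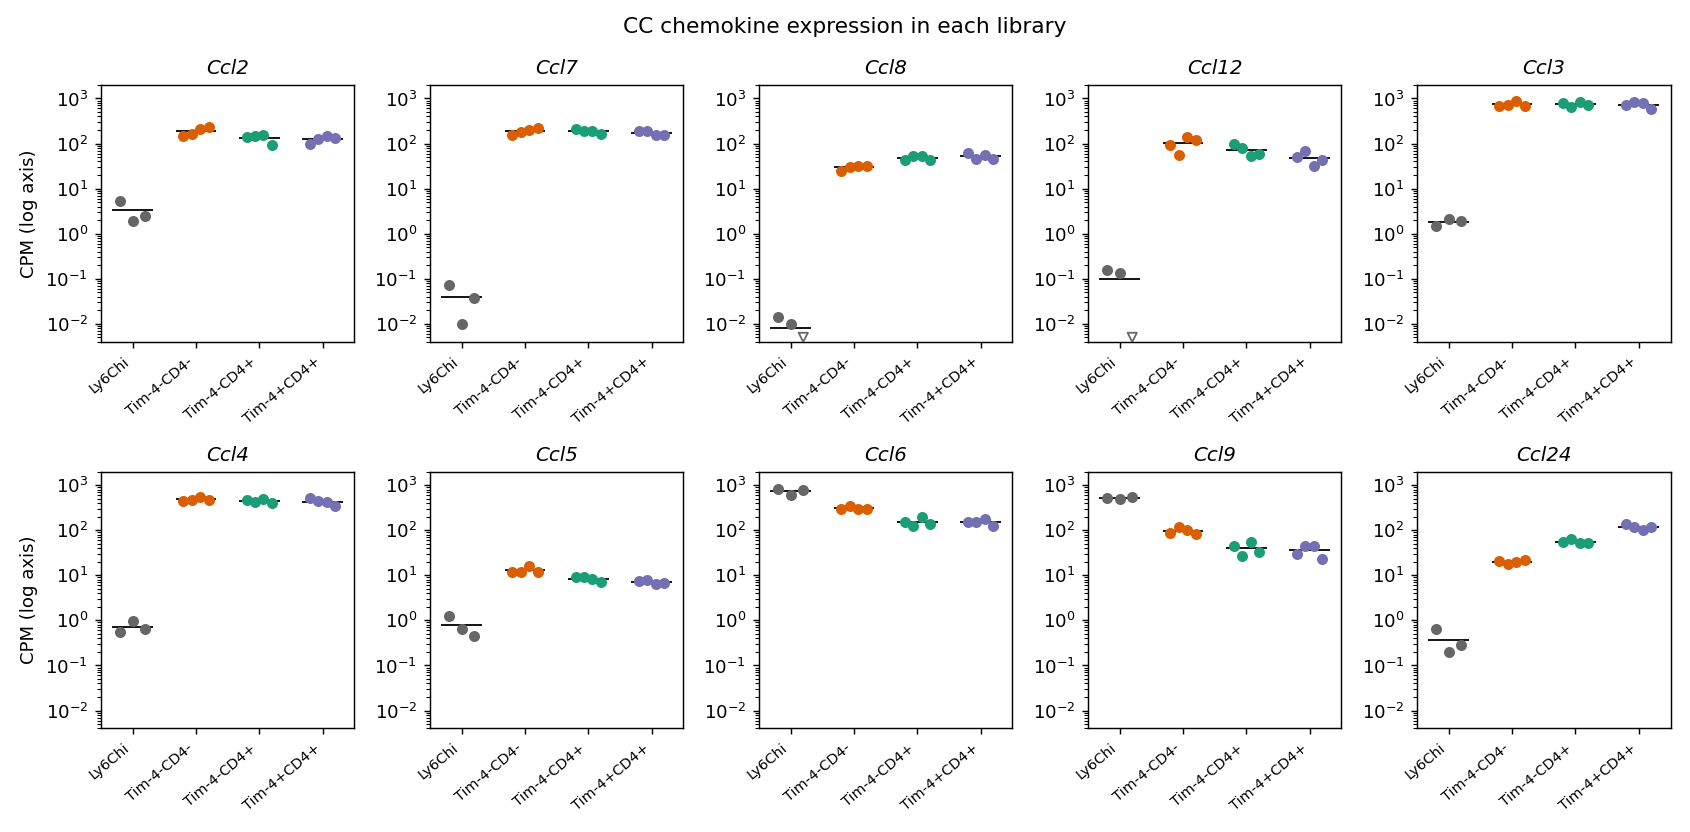
Level of each CC chemokine in CPM, on a log axis, in each of the 15 libraries; points are libraries, horizontal lines are group means, and open triangles at the bottom mark libraries with 0 counts. Ccl6 and Ccl9 were highest in monocytes, the other 8 genes were lowest there, and Ccl24 rose from the Tim-4-CD4- subset to the Tim-4+CD4+ subset.

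The makeup of the chemokine transcripts differed accordingly. To compare genes with each other, CPM was divided by the length in kilobases of all annotated exon bases of the gene. Per length, Ccl6 made up 69.3% ± 2.58 and Ccl9 29.4% ± 2.65 (SD, n = 3) of the summed level of the 10 genes in monocytes. In Tim-4+CD4+ macrophages, Ccl3 made up 41.2% ± 2.64 and Ccl4 28.0% ± 2.18 (SD, n = 4), and the shares were 37.4% and 28.6% in the Tim-4-CD4- subset and 40.7% and 28.6% in the Tim-4-CD4+ subset. The summed level was 588 ± 75.2 CPM per kb in monocytes (SD, n = 3), 2587 ± 272 in the Tim-4-CD4- subset, 2382 ± 217 in the Tim-4-CD4+ subset and 2326 ± 283 in the Tim-4+CD4+ subset (SD, n = 4). The libraries of the 3 macrophage subsets overlapped in this sum, from 1914 to 2947 CPM per kb, and all of them lay above the monocyte libraries, which reached 641 CPM per kb.

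In macrophages the order per length began with Ccl3, Ccl4 and Ccl7 in every subset. In Tim-4-CD4- macrophages Ccl3, at 877 to 1129 CPM per kb, lay above Ccl4, at 679 to 837, without overlap, and both lay above Ccl7, at 195 to 280. Ccl12, Ccl6 and Ccl2 followed Ccl7, with ranges that overlapped each other's, and Ccl12 and Ccl2 also overlapped Ccl7. Then came Ccl8, at 49.2 to 63.8 CPM per kb, and Ccl9, at 27.4 to 38.0, each apart from its neighbors. Ccl24, at 13.6 to 16.9, and Ccl5, at 12.3 to 16.8, closed the order and overlapped. In Tim-4+CD4+ macrophages Ccl24 had moved to 80.1 to 105 CPM per kb, which overlapped the ranges of Ccl2, Ccl8, Ccl12 and Ccl6. Only Ccl9 and Ccl5 were below them. There the ranges of Ccl3, 748 to 1109, and Ccl4, 512 to 773 CPM per kb, overlapped.

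**Figure D2:**
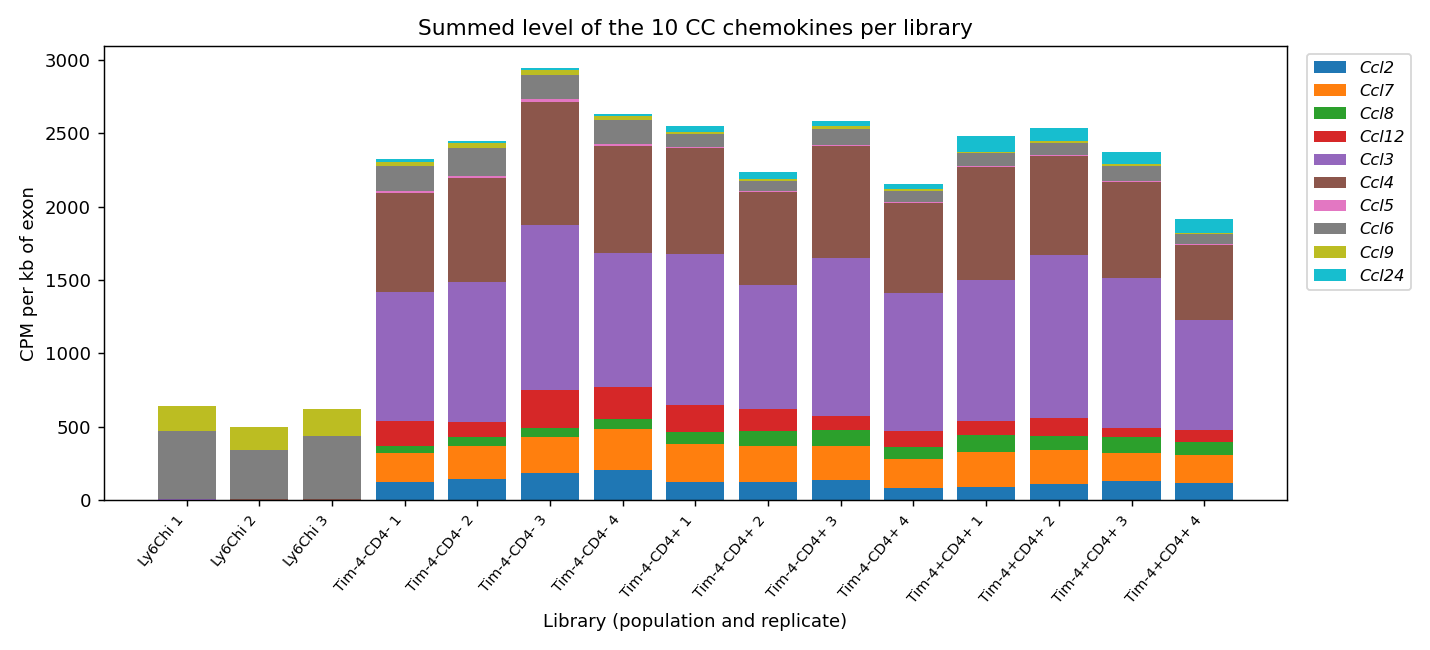
Summed level of the 10 CC chemokines in CPM per kb of annotated exon, stacked by gene, for each library (population and replicate). Monocyte bars, at 502 to 641 CPM per kb, consist almost wholly of Ccl6 and Ccl9, and macrophage bars, at 1914 to 2947 CPM per kb, are led by Ccl3 and Ccl4.

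Among the ligands of Ccr2, Ccl2 draws monocytes to inflamed and resting tissue. It was found at 5.45, 1.91 and 2.49 CPM in monocyte replicates 1 to 3. In Tim-4-CD4- macrophages it was at 144, 165, 214 and 236 CPM in replicates 1 to 4. In Tim-4-CD4+ macrophages it was at 140, 145, 158 and 92.7 CPM, and in Tim-4+CD4+ macrophages at 99.97, 128, 147 and 131 CPM. The macrophage libraries lay above all monocyte libraries, and Tim-4-CD4- replicates 3 and 4 were the highest of all, but the subsets overlapped. Ccl2 was 56.7-fold higher in Tim-4-CD4- macrophages than in monocytes (95% interval 33.6 to 95.7). In Tim-4+CD4+ relative to Tim-4-CD4- macrophages the log2 fold change was -0.58 (SE 0.25), which did not pass adjustment (edgeR, adjusted p = 0.109), and the alternatives gave adjusted p from 0.0283 to 0.272. In Tim-4-CD4+ relative to Tim-4-CD4- macrophages it was -0.50 (SE 0.25, adjusted p = 0.249).

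Ccl7, a neighbor of Ccl2 that also acts on monocytes, was nearly absent from monocytes, with 13 counts in all over the 3 libraries. Of these counts, 10 were in replicate 1. In the macrophage libraries Ccl7 ran from 154 to 224 CPM. Its levels were 156, 180, 195 and 224 CPM in Tim-4-CD4- macrophages, 210, 195, 188 and 159 CPM in Tim-4-CD4+ macrophages and 191, 187, 156 and 154 CPM in Tim-4+CD4+ macrophages. The 3 subsets overlapped throughout. Relative to the pooled monocyte counts, the level was 4251 times higher in Tim-4-CD4- macrophages (exact Poisson 95% interval 2486 to 7984). It was 4105 times higher in the Tim-4-CD4+ subset and 4047 times in the Tim-4+CD4+ subset. Leaving out 1 library at a time, the log2 fold change in Tim-4-CD4- macrophages relative to monocytes ran from 11.58 to 13.16. Between subsets the log2 fold changes of Ccl7 lay from -0.13 to -0.01, and the 95% intervals reached from -0.43 to 0.29.

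Ccl12, the third Ccr2 ligand and a gene of the mouse, was at 0.156, 0.136 and 0 CPM in the monocyte libraries, from 36 counts. It was at 90.7, 56.6, 137 and 119 CPM in Tim-4-CD4- macrophages. In Tim-4-CD4+ macrophages it was at 97.3, 80.3, 53.1 and 59.1 CPM, and in Tim-4+CD4+ macrophages at 50.1, 67.0, 32.5 and 43.3 CPM. It varied more among libraries of a subset than the other members but for Ccl9 in the CD4+ subsets, with coefficients of variation of 28.0% to 34.9%. Ccl12 was lower in Tim-4+CD4+ than in Tim-4-CD4- macrophages by a log2 fold change of -1.06 (SE 0.28, 95% interval -1.66 to -0.47, edgeR adjusted p = 0.0113), although Tim-4-CD4- replicate 2 lay among the Tim-4+CD4+ libraries. Adjusted p ran from 0.00297 to 0.0489 over the alternatives, and the highest value came from leaving out Tim-4-CD4- replicate 3. Neither step of this difference passed in the fit, which pairs no libraries: the log2 fold change was -0.48 (adjusted p = 0.341) from the Tim-4-CD4- subset to the Tim-4-CD4+ subset and -0.58 (adjusted p = 0.352) from there to Tim-4+CD4+ macrophages. With libraries grouped by their best correlation over all genes tested, Ccl12 fell at each step in each group, and no test was made of this. The groups were drawn from the same counts, with best correlations of only 0.0582 to 0.24, and no label gives them. Of the members only Ccl12 was read in this way, so no conclusion is drawn from it.

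Ccr2 itself followed another course than its ligands. The receptor was at 2243 to 2884 CPM in monocytes, 510 to 759 CPM in Tim-4-CD4-, 65.2 to 113 CPM in Tim-4-CD4+ and 4.84 to 15.8 CPM in Tim-4+CD4+ macrophages, with no overlap between any populations. Its log2 fold change was -6.28 (SE 0.35) in Tim-4+CD4+ relative to Tim-4-CD4- macrophages (edgeR, adjusted p = 2.3e-09), while those of its 3 ligands lay between -1.06 and -0.13 in the same comparison.

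Ccl8, which lies next to Ccl12, differed in direction from it. In monocytes only 3 counts were found in the 3 libraries together. It was at 25.2, 29.7, 31.3 and 32.6 CPM in Tim-4-CD4- macrophages, at 42.6, 52.6, 53.1 and 42.9 CPM in Tim-4-CD4+ macrophages and at 61.2, 46.0, 54.6 and 44.7 CPM in Tim-4+CD4+ macrophages. Every library of the CD4+ subsets lay above every Tim-4-CD4- library, and the CD4+ subsets overlapped. Ccl8 rose by a log2 fold change of 0.69 (SE 0.12, adjusted p = 0.00138) in Tim-4-CD4+ and 0.80 (SE 0.12, adjusted p = 0.000136) in Tim-4+CD4+ macrophages relative to Tim-4-CD4- macrophages (edgeR). The difference between the CD4+ subsets was 0.11 (95% interval -0.14 to 0.37). Against pooled monocyte counts, the ratio in Tim-4+CD4+ macrophages was 5154 with an exact Poisson 95% interval of 1763 to 24990, which is wide because of the 3 counts. Its receptor Ccr8 stayed below 1 CPM in every library, at 0 to 0.141 CPM.

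Ccl3 and Ccl4, made by activated macrophages and lymphocytes, were the most abundant of the 10 genes in macrophages. Ccl3 was at 1.47, 2.08 and 1.95 CPM in monocytes. In macrophages it was at 672, 729, 865 and 698 CPM (Tim-4-CD4-), 785, 644, 821 and 720 CPM (Tim-4-CD4+) and 735, 850, 785 and 573 CPM (Tim-4+CD4+). Ccl4 was at 0.560, 0.953 and 0.632 CPM in monocytes and between 338 and 552 CPM in the 12 macrophage libraries. Subsets overlapped for both genes, and Tim-4+CD4+ replicate 4 was the lowest library for both. The means of Ccl3 were 741 ± 85.9, 743 ± 77.8 and 736 ± 118 CPM (SD, n = 4). Compared with monocytes, Ccl3 was 404- to 408-fold and Ccl4 600.3- to 679.6-fold higher in the 3 subsets. The log2 fold changes between subsets lay from -0.01 to 0.00 for Ccl3 and from -0.18 to -0.06 for Ccl4, and their 95% intervals, -0.29 to 0.28 for Ccl3 and -0.47 to 0.23 for Ccl4, bound what these libraries could miss.

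Ccl5, which is best known from T cells, had the lowest mean per length of the members in each macrophage subset. It was at 1.23, 0.661 and 0.446 CPM in monocytes and 12.1, 11.8, 16.1 and 11.96 CPM in Tim-4-CD4- macrophages. It was at 9.09, 9.26, 8.50 and 7.09 CPM in Tim-4-CD4+ macrophages and 7.41, 7.70, 6.56 and 6.78 CPM in Tim-4+CD4+ macrophages. All Tim-4-CD4- libraries lay above all libraries of the CD4+ subsets, and replicate 3, the library with the most dendritic cell markers, was the highest. The fall to Tim-4+CD4+ macrophages, by 0.87 on the log2 scale (SE 0.20), passed the test (edgeR, adjusted p = 0.00495) and did so at -0.74 without Tim-4-CD4- replicate 3 (adjusted p = 0.0243). The difference of Tim-4-CD4+ from Tim-4-CD4- macrophages, -0.61 (SE 0.20), did not pass (adjusted p = 0.0668), but DESeq2 gave an adjusted p of 0.0153 for it. The T and NK cell markers summed to 6.06 to 9.73 CPM in Tim-4-CD4-, 12.7 to 17.6 CPM in Tim-4-CD4+ and 9.39 to 11.4 CPM in Tim-4+CD4+ libraries. The part of T cells, NK cells or dendritic cells in the level of Ccl5 was not tested.

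Ccr1, which binds Ccl3 and Ccl5, was higher in every macrophage subset than in monocytes. It had means of 424, 524 and 465 CPM in the 3 subsets, from Tim-4-CD4- through Tim-4-CD4+ to Tim-4+CD4+, and 73.1 CPM in monocytes. Ccr1 did not pass the test between subsets, where its log2 fold changes lay from -0.17 to 0.30 (edgeR, adjusted p from 0.331 to 0.683).

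Ccl6 and Ccl9 were the only members higher in monocytes than in macrophages. Ccl6 was at 826, 601 and 774 CPM in monocytes. It was at 301, 340, 299 and 292 CPM in Tim-4-CD4- macrophages, and at 156, 122, 194 and 139 CPM in Tim-4-CD4+ and 150, 150, 182 and 126 CPM in Tim-4+CD4+ macrophages. The level therefore fell in 2 steps, from monocytes to Tim-4-CD4- macrophages and again to the CD4+ subsets, which overlapped. The log2 fold change was -1.25 (SE 0.15, adjusted p = 1.83e-06) for the first step and -1.01 (SE 0.14, adjusted p = 0.000195) for the second, into Tim-4-CD4+ macrophages (edgeR). Between the CD4+ subsets it was -0.01 (95% interval -0.31 to 0.29).

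Ccl9, encoded next to Ccl6, took the same course. It was at 521, 489 and 561 CPM in monocytes and at 88.2, 116, 101 and 83.5 CPM in Tim-4-CD4- macrophages. In Tim-4-CD4+ macrophages it was at 45.6, 26.6, 54.8 and 32.5 CPM, and in Tim-4+CD4+ macrophages at 30.0, 44.1, 46.0 and 22.9 CPM. Again neither monocytes nor Tim-4-CD4- macrophages overlapped any other population. The fall was 2.43 on the log2 scale (SE 0.24, adjusted p = 1.58e-07) from monocytes to Tim-4-CD4- macrophages and a further 1.28 (SE 0.22, adjusted p = 0.00128) to Tim-4-CD4+ macrophages, so that Tim-4+CD4+ macrophages held 6.82% of the monocyte level of Ccl9 and 20.7% of that of Ccl6. The markers Ly6c2 and Vcan were in Tim-4-CD4- macrophages at 0.158% and 0.314% of their monocyte means, where Ccl6 was at 42.0% and Ccl9 at 18.5%. Plac8 was at 3.42% and Ccr2 at 25.1% there.

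The sequences before the start sites of Ccl6 and Ccl9 are shown because these neighbors moved together, and those of Ccl12 and Ccl8 because these neighbors moved apart. Each is the 250 bases before the start site in RefSeq (GRCm38.p6), on the strand of the gene, where 5 of the 10 genes had an entry. Capitals mark matches on either strand to TATAAA, to the AP-1 motif TGANTCA, to the core TTCNNTTTC of the interferon response element or to the NF-kB consensus.
Ccl6 (chr11:83593088-83593337, minus strand): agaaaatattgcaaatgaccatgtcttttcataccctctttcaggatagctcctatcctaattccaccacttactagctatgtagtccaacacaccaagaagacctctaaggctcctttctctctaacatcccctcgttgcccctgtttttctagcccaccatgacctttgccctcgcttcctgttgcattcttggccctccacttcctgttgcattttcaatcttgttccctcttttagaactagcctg
Ccl9 (chr11:83578637-83578886, minus strand): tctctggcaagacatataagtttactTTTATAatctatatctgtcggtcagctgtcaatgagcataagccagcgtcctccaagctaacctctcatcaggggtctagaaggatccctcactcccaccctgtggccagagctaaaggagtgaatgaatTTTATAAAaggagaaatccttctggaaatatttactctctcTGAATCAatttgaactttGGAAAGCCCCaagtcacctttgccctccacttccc
Ccl12 (chr11:82101595-82101844, plus strand): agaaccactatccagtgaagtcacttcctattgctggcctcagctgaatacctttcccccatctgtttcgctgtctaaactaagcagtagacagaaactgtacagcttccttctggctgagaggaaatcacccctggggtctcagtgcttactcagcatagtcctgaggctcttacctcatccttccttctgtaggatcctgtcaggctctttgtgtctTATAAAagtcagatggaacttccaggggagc
Ccl8 (chr11:82114935-82115184, plus strand): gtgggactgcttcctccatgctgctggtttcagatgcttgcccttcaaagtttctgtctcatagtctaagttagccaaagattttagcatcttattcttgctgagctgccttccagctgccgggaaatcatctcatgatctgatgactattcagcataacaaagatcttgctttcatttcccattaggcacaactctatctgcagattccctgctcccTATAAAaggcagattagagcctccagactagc

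TATAAA stood 32 bases before the start in Ccl8 and 31 bases in Ccl12. The window of Ccl9 held it at 224, 94 and 92 bases, the last 2 matches overlapping, and held AP-1 at 53 bases and the NF-kB consensus at 35 bases. None of these motifs was found in the window of Ccl6, and Ccl3, which is not printed, held 1 match, to TTCNNTTTC, at 39 bases. Thus 3 of the 5 windows held TATAAA, where 12.4% of 32851 windows of RefSeq genes did, and 1 of 5 held each of the others, which 6.75% (AP-1), 7.13% (TTCNNTTTC) and 7.25% (NF-kB) of all windows held. The windows of Ccl6 and Ccl9 had 45.7% identical bases on alignment, within the range of 43.7% to 54.5% of the 10 pairs, of which Ccl8 and Ccl12 were the most alike.

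Ccl24 was the member that changed most among the subsets and the one that separated all 4 populations. It was at 0.638, 0.195 and 0.279 CPM in monocytes and 21.2, 17.6, 20.03 and 21.8 CPM in Tim-4-CD4- macrophages. It was at 54.5, 64.9, 51.3 and 51.0 CPM in Tim-4-CD4+ macrophages and 136, 117, 104 and 119 CPM in Tim-4+CD4+ macrophages. No library of one population reached into the range of another. From the Tim-4-CD4- subset to the Tim-4-CD4+ subset it rose 2.75-fold (95% interval 2.12 to 3.57, adjusted p = 4.61e-05), and from there to Tim-4+CD4+ macrophages 2.15-fold (1.66 to 2.77, adjusted p = 0.000929). Between the ends of the series the difference was 5.90-fold (4.51 to 7.72, edgeR adjusted p = 3.91e-08). Ccr3, its receptor, stayed at or below 1.05 CPM in all libraries. The eosinophil markers Siglecf, Prg2 and Ccr3 summed to 5.66 to 9.87 CPM in Tim-4-CD4-, 9.28 to 11.2 CPM in Tim-4-CD4+ and 12.01 to 17.9 CPM in Tim-4+CD4+ libraries, and their part in the level of Ccl24 was not tested. Prg2 stayed at or below 0.431 CPM in these libraries.

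In Tim-4-CD4+ relative to Tim-4-CD4- macrophages 2 were higher (Ccl8, Ccl24), 2 were lower (Ccl6, Ccl9) and 6 did not pass, where 4.52% of all genes were called higher and 5.53% lower. In Tim-4+CD4+ relative to Tim-4-CD4- macrophages 2 were higher (Ccl8, Ccl24), 4 were lower (Ccl5, Ccl6, Ccl9, Ccl12) and 4 did not pass, beside 11.3% and 11.9% of all genes. Between the CD4+ subsets Ccl24 alone was called, as higher, and no member was called lower, beside 2.07% and 1.34% of all genes. For these 10 genes DESeq2 also called no member lower in the last comparison, and none had an unadjusted p under 0.05 in that direction. The median log2 fold change of the 10 genes was -0.30, -0.38 and -0.07 in the 3 comparisons, and that of all genes tested was 0.00 in each. The first 2 comparisons share the Tim-4-CD4- libraries.

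**Figure D3:**
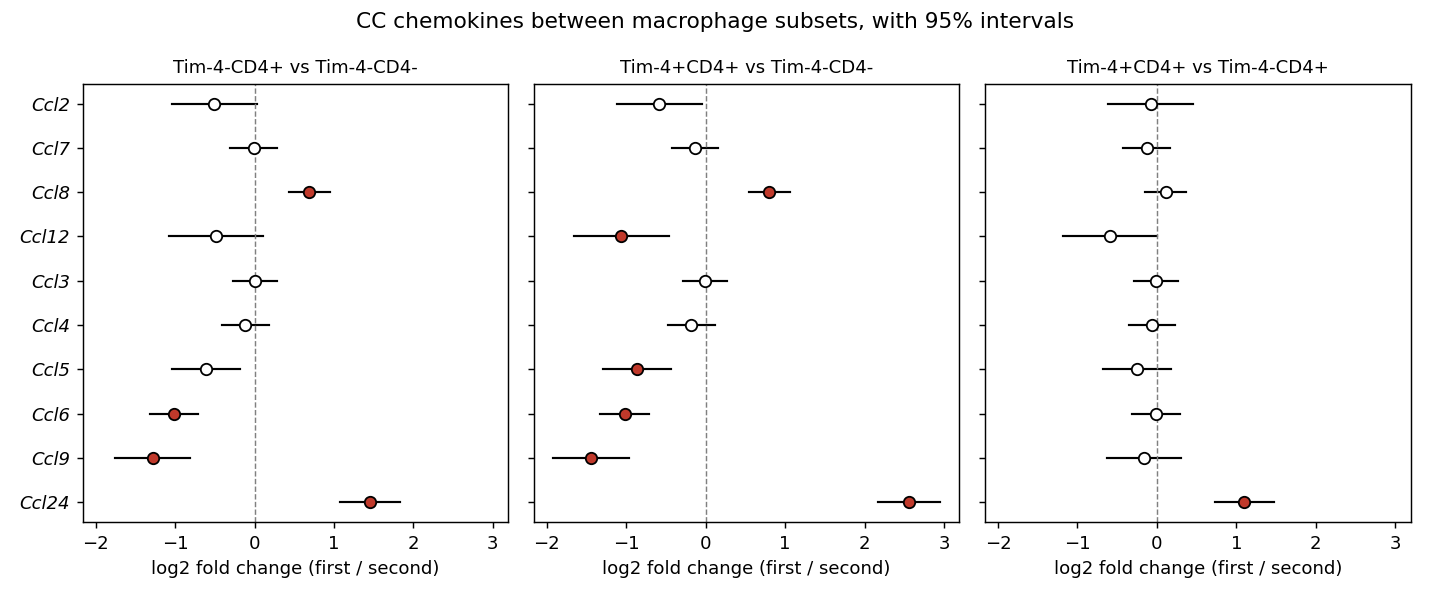
Log2 fold change of each CC chemokine in the 3 comparisons of macrophage subsets (first over second population named); points are edgeR estimates, bars are 95% intervals, and red points have an adjusted p under 0.05. Ccl24 rose in all 3 comparisons, and the intervals of Ccl3 and Ccl7 include 0 in each.

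The 12 macrophage libraries show how the genes varied together. These correlations are descriptions over libraries that share subsets, and are given with no test. Ccl6 and Ccl9 were the closest pair, with Pearson's r of 0.97 over log2 CPM and of 0.91 after the mean of each subset was subtracted. Ccl3 and Ccl4 had r of 0.73 and 0.79. Ccl3 and Ccl9 had 0.41 over all libraries but 0.83 within subsets, and Ccl8 and Ccl24 had 0.87 over all libraries but 0.27 within subsets. Ccl6 and Ccl24 were opposed on either scale, at -0.865 and -0.643. Among the neighbors of the first group on chromosome 11, Ccl7 and Ccl12 had r of 0.63 and 0.62, and Ccl8 and Ccl12 had -0.60 and -0.07.

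**Figure D4:**
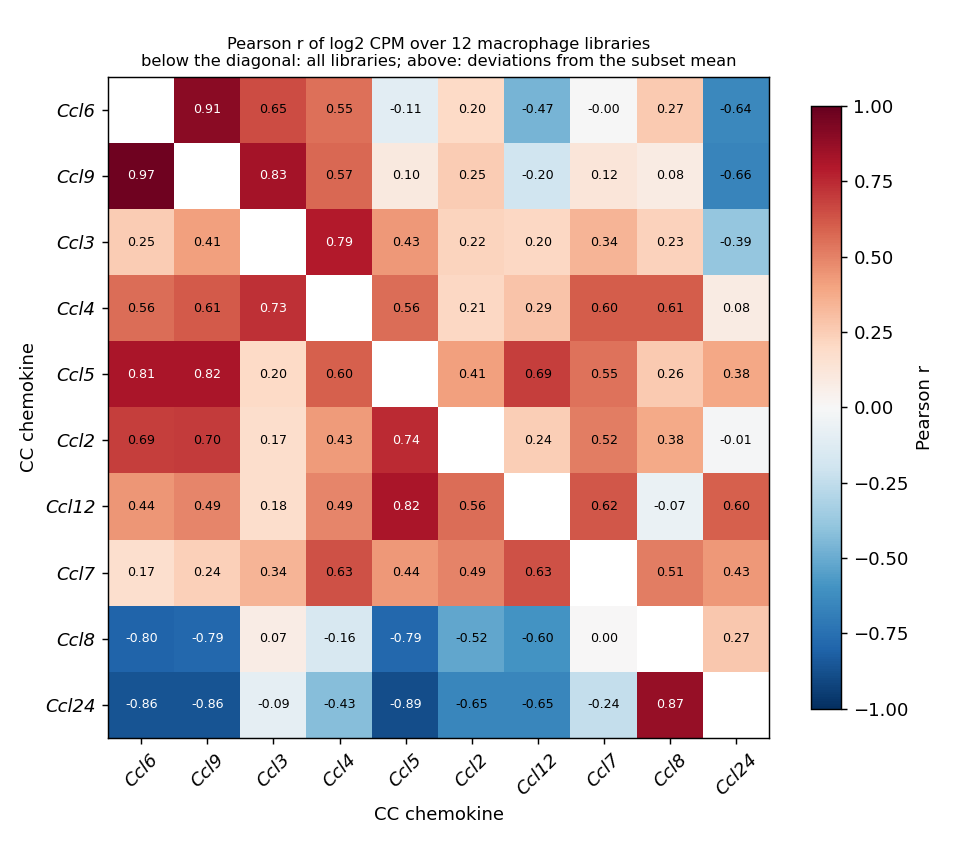
Pearson's r of log2 CPM between pairs of CC chemokines over the 12 macrophage libraries; cells below the diagonal use the levels and cells above it the deviations from each subset's mean. Ccl6 and Ccl9 are the closest pair on both sides, at 0.97 and 0.91.

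Part of the variation within subsets went with heat shock transcripts. In each subset 1 library stood apart in Hspa1a, which encodes an inducible chaperone: Tim-4-CD4- replicate 2 at 534 CPM (130 to 280 in the others), Tim-4-CD4+ replicate 3 at 542 CPM (144 to 338) and Tim-4+CD4+ replicate 3 at 616 CPM (150 to 315). In all 3 subsets that library also had the lowest Ccl12 and the highest Ccl6 and Ccl9. Across subsets these 3 libraries were best matches of each other in deviations over all genes tested (r of 0.24, 0.184 and 0.134). They may come from 1 sort, which the labels do not give, so the 3 subsets may not be independent repeats. The same holds for the 12 libraries in the correlations that follow. Deviations from the subset mean gave r with Hspa1a of -0.78 for Ccl12, 0.46 for Ccl6 and 0.19 for Ccl9 (n = 12 libraries, no test). For Ccl9 the library with the least Hspa1a in each subset also lay above the subset mean. Without these 3 libraries the counts of called genes were the same in all 6 comparisons, and the log2 fold change of Ccl12 in Tim-4+CD4+ relative to Tim-4-CD4- macrophages was -1.10 (edgeR, adjusted p = 0.00674). The part of heat shock or handling in these levels was not tested.

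**Figure D5:**
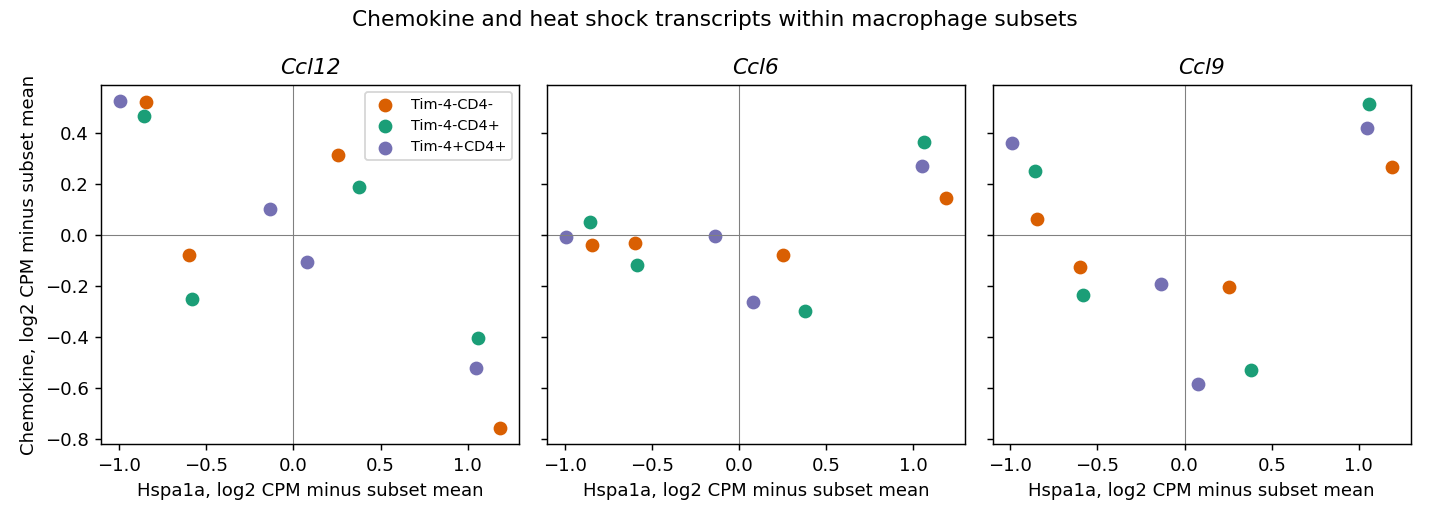
Log2 CPM of Ccl12, Ccl6 and Ccl9 against that of Hspa1a, each as the deviation from the mean of its macrophage subset, for the 12 macrophage libraries. The 3 libraries with the most Hspa1a sit lowest in Ccl12 and highest in Ccl6 and Ccl9 within their subsets.

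The genes with the most similar course over the 12 macrophage libraries were searched among 11788 genes with a mean of at least 1 CPM. For Ccl24 they were Phkg1 (r of 0.996), St5 (0.990) and Adamdec1 (0.990). For Ccl6 they included Socs3 (0.980) and Marcksl1 (0.979), and for Ccl9 Sod2 (0.974), Thbd (0.973) and Ccl6 (0.973). For Ccl5 they were S100a11 (0.974), Cd209a (0.973) and Gem (0.971), and for Ccl8 Ckmt1 (0.962), Mocs2 (0.944) and Armc8 (0.944). Ccl12 was closest to Sucla2 (0.951), Uba2 (0.944) and Cluh (0.935), and Ccl2 to Nop14 (0.945), Slc19a2 (0.932) and Tgtp2 (0.920). Ccl4 was closest to Mrpl36 (0.903), Med28 (0.900) and Clns1a (0.893), Ccl7 to Alad (0.886), Rad1 (0.870) and Tprkb (0.866), and Ccl3 to Igkv6-23 (0.881), an immunoglobulin segment, Dpagt1 (0.836) and Srd5a1 (0.826).

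Genes of the pathways that act on chemokines were read from 7 lists. Their counts are to be read beside the shares of all genes tested. Against monocytes 37.3% to 39.5% were called higher and 28.1% to 31.3% lower in the 3 subsets. Relative to Tim-4-CD4- macrophages, 4.52% were higher and 5.53% lower in Tim-4-CD4+ macrophages, and 11.3% and 11.9% in Tim-4+CD4+ macrophages. Of 17 immediate early and heat shock genes, which respond within minutes to stimulation and to tissue handling, 16, 16 and 17 were higher than in monocytes in the 3 subsets, from Tim-4-CD4- through Tim-4-CD4+ to Tim-4+CD4+, with medians of 5.08, 5.10 and 4.99 on the log2 scale and none lower. These genes rose in the same comparisons as all 8 chemokines that were higher than in monocytes, and as the share of all genes given above. Since the macrophages came from tissue and the monocytes from blood, cell type and preparation cannot be told apart in them. In Tim-4+CD4+ relative to Tim-4-CD4- macrophages 6 of the 17 were lower and none higher, with a median of -0.16, among them the transcription factors Egr2 (-1.27), Fosl2 (-0.84), Nr4a1 (-0.80) and Egr1 (-0.65).

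Of 18 genes of NF-kB and its feedback, a main route to chemokine transcription, 9, 9 and 8 were higher and 4, 7 and 7 lower than in monocytes. Over all genes tested, 37.3% to 39.5% were higher and 28.1% to 31.3% lower. In Tim-4-CD4+ relative to Tim-4-CD4- macrophages 7 were lower and none higher. In Tim-4+CD4+ relative to Tim-4-CD4- macrophages 10 were lower and 1 higher, with a median log2 fold change of -0.37. The members named by the rule were Tnip3 (-5.63), an inhibitor induced by the pathway, and the receptor Tlr2 (-1.23, edgeR adjusted p = 9.67e-08). The others were the inhibitor Nfkbia (-0.77) and Nfkbiz (-0.76), and all 4 had no overlap between the libraries of these subsets. Of 8 genes that govern decay of AU-rich transcripts, 3 were higher than in monocytes in each subset, near the share over all genes, and 1 to 3 were lower. In both CD4+ subsets 2 were lower than in Tim-4-CD4- macrophages, named in the second comparison as Zfp36l1 (-0.995) and Zc3h12a (-0.74).

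Of 12 interferon-stimulated genes 1 passed in Tim-4+CD4+ relative to Tim-4-CD4- macrophages, Isg15 (0.78, adjusted p = 0.00548), and none did in Tim-4-CD4+ relative to Tim-4-CD4- macrophages. Against monocytes 3 or 4 of the 12 were higher and 4 or 5 lower, beside the shares of all genes given above. Of 12 genes listed for interleukin-4, among them its transducer Stat6 and the resident macrophage genes Cd163 and Folr2, which are not known as its targets, 9 were higher and 2 lower than in monocytes in every subset. In Tim-4+CD4+ relative to Tim-4-CD4- macrophages 3 were higher, Cd163 (2.02), Folr2 (1.25) and Pdcd1lg2 (0.99), and 3 were lower, of which Retnla, a classical marker of this response, fell by 3.24 on the log2 scale. The median of the list was -0.04. Of 13 tested receptors of CC chemokines, 3 were lower between these subsets and none higher: Ccr2, Ccr7 (-1.95), which marks migrating dendritic cells, and Ccrl2 (-0.76), a receptor that presents ligand without signaling. Against monocytes 10 or 11 receptors were higher and 1, Ccr2, was lower. Between the CD4+ subsets few genes of the 7 lists passed: 2 receptors, 1 NF-kB gene and 1 interferon-stimulated gene were lower and 3 genes of the interleukin-4 list were higher in Tim-4+CD4+ macrophages, and the other 3 lists had no call. In that comparison 2.07% of all genes were called higher and 1.34% lower.

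Of 11 further CC chemokines, 7 were in the table and 6 were tested. Against monocytes 5 were higher and 1, Ccl25, lower in every subset. Between the macrophage subsets 2 differed, Ccl22 and Ccl17, which attract T cells through Ccr4, and neither differed between the CD4+ subsets. Ccl22 was at 23.1, 14.4, 55.9 and 13.5 CPM in Tim-4-CD4- macrophages and between 2.54 and 5.29 CPM in the 8 libraries of the CD4+ subsets. Its log2 fold change in Tim-4+CD4+ relative to Tim-4-CD4- macrophages was -2.66 (SE 0.38, edgeR adjusted p = 7.8e-05). The library with the most Ccl22, Tim-4-CD4- replicate 3, was the one with the most dendritic cell markers, among them Ccr7 at 14.3 CPM and Itgae at 24.7 CPM, against at most 5.86 and 5.43 CPM in the other libraries of that subset. Their part in the level of Ccl22 was not tested.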

How the data were processed

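Small intestine macrophages and blood monocytes had been sorted and their mRNA sequenced as 65-base read pairs from stranded libraries. Per the submitters' notes, the authors used Trimmomatic 0.36 for trimming, STAR for alignment to GRCm38.p4 and HTSeq 0.6.1p1 for counting uniquely mapped reads over GENCODE vM11 genes, and deposited the counts without normalization. No gene in the table had fewer than 16 counts in all. Another 15 columns, the counts divided by a size factor, were not used.

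Groups came from the sample titles. Counts were fitted in edgeR 4.0.16 (R 4.3.3) with the quasi-likelihood test, in 1 fit over 15 libraries without a replicate block, after filterByExpr by population and TMM scaling. P-values were adjusted by Benjamini-Hochberg over the 15802 genes of each of 6 comparisons, with a threshold of 0.05. Log2 CPM for correlations used a prior count of 2. Monocyte levels that rest on few counts were pooled and given with exact Poisson 95% intervals. Exon lengths, coding sequences and 65-base stretches came from GENCODE vM21, alignments were made with Biopython 1.88, and plots used matplotlib 3.10.9 in Python 3.11.15. The edgeR and DESeq2 tests were tried on simulated counts, for the comparison of Tim-4+CD4+ with Tim-4-CD4- macrophages only.

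The genes, the gene lists and the marker lists were chosen with earlier results of these data known. Beside the 10 genes, the rule named up to 4 genes of each list with the largest change past the threshold in Tim-4+CD4+ relative to Tim-4-CD4- macrophages and a mean of at least 1 CPM, and the 3 genes most correlated with each member. Receptors, markers and Ccl17 were named after their values were seen. Alternatives were DESeq2 1.42.0, relative log expression scaling, no filter, only the compared populations, a replicate block, thinned counts, CPM without TMM and leaving out each library. The omission of the libraries with the most Hspa1a and the length of the longest coding transcript were chosen after seeing the data. Some genes and 1 sequence that these rules select are not reported here.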

Additional observations from a re-analysis of the deposited data

Results flagged for a closer look

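The level of Ccl5 in Tim-4-CD4- replicate 3, 16.1 CPM, stood apart from the other 3 libraries of its subset, which lay between 11.8 and 12.1 CPM, by more of the group's range than a Dixon test at the 95% level allows. It was the only one of 33 groups of 4 libraries so marked (10 genes and the summed level in 3 subsets), and chance alone marks about 1 in 20 groups. The same library had the most dendritic cell markers, 65.0 CPM in sum, and the most Ccl22, 55.9 CPM. The part of other cells in this level was not tested.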

How the results depend on the processing

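All counts of called members stayed within 1.5 times of the reported count in 276 alternatives. Of the alternative fold changes of the members, 1339 kept direction and call, 7 passed the threshold anew and none lost it. Another 34 turned direction, all in comparisons in which the gene concerned was never called. On the log2 scale, the change of Ccl7 from the Tim-4-CD4- to the Tim-4-CD4+ subset turned to 0.0085 with DESeq2, 0.0082 with relative log expression factors and 0.0013 in a fit of only the compared populations, and that of Ccl3 to the Tim-4+CD4+ subset to 0.015, 0.015 and 0.0042. Without the libraries highest in Hspa1a, Ccl3 turned to -0.056 in the first comparison, and Ccl3, Ccl4 and Ccl6 to 0.021, 0.011 and 0.046 between the CD4+ subsets. Ccl5 passed in Tim-4-CD4+ macrophages at -0.60 with DESeq2, -0.63 with thinned counts (adjusted p = 0.0498), -0.61 with only the compared populations, and without monocyte replicate 1 (adjusted p = 0.0114) or 3 (0.0311). Ccl2 passed in Tim-4+CD4+ macrophages at -0.57 with only the compared populations and without monocyte replicate 1 (adjusted p = 0.0283). The cause was not tested. The summed level in monocytes moved to 693 CPM per kb with the length of the longest coding transcript.

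Leaving out 1 library at a time, log2 fold changes against the Tim-4-CD4- subset ran from -0.089 to 0.087 (Ccl7), -0.050 to 0.087 (Ccl3) and -0.66 to -0.49 (Ccl5) in Tim-4-CD4+ macrophages, and from -0.077 to 0.093 (Ccl3) and -0.69 to -0.45 (Ccl2) in Tim-4+CD4+ macrophages. Between the CD4+ subsets they ran from -0.22 to 0.020 (Ccl2), -0.083 to 0.089 (Ccl3), -0.15 to 0.037 (Ccl4), -0.097 to 0.14 (Ccl6) and -0.31 to 0.043 (Ccl9).

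Replicate numbers did not pair the libraries. Deviations of same-numbered libraries had r from -0.123 to 0.134 by the numbers in titles and from -0.0888 to 0.161 by those in descriptions. Each numbering gave 12 comparisons of a library with the libraries of another subset. In 3 of the 12 by titles and 5 by descriptions, the best correlation was with the same number. In the rest the library correlated best with one of another number, at r of up to 0.24. No test used these sets, so any sorts that libraries share are not modeled. A replicate block changed no call. It gave Ccl12 in Tim-4+CD4+ relative to Tim-4-CD4- macrophages a log2 fold change of -1.11 (adjusted p = 0.0218) by titles and -1.01 (0.0297) by descriptions, and turned Ccl6 between the CD4+ subsets to 0.00073. Depth limits the chemokines in monocytes, where Ccl8 rests on 3 counts and Ccl7 on 13. Pools of mice, 1 sex and the difference in preparation of blood and gut limit what the groups stand for.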
